A study of Sus scrofa with 4 samples.

Results

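TNF, its receptors and the genes that govern death-receptor and mitochondrial apoptosis were followed in porcine intramuscular fat cells through 9 genes: TNF, TNFRSF1A, TNFRSF1B, FAS, CASP8, CFLAR, CASP4, BCL2L1 and BCL2L2. They were found by gene name among 34853 gene names on the array and were read by 22 of its 43603 probes. Of the 9 genes, 8 stood under their own symbol, with 15 probes. CFLAR was listed as C-FLIP, with 7 probes, of which 5 carried the RefSeq transcript that is assigned to CFLAR. The other C-FLIP probes, at bases 1369 and 1768, carried an Ensembl transcript and were taken by the shared name, and their positions count along that record.

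TNF is a cytokine that binds 2 receptors, TNFRSF1A (TNFR1), which is present on most cells, and TNFRSF1B (TNFR2). FAS is a related death receptor for a different ligand. TNFR1 and FAS carry a death domain and can recruit the adaptor FADD and the initiator caspase CASP8, and CFLAR (c-FLIP), a caspase-8 homolog, sets whether that complex becomes active. TNFR1 also signals through NF-κB, which induces survival genes. BCL2L1 and BCL2L2 (BCL-X and BCL-W) hold the mitochondrial arm of apoptosis in check, and CASP4 is an inflammatory caspase that acts in pyroptosis. In fat tissue TNF-α is known to inhibit adipocyte differentiation and to raise lipolysis.

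RNA was compared across 4 conditions. PIP cells are a preadipocyte line that was derived from the longissimus muscle of 1 Duroc pig. Porcine mature adipocytes (pMA) were PIP cells kept for 4 days in medium with insulin, dexamethasone, octanoate and oleate. In the other 2 conditions pMA were stimulated for 12 h, either with serotonin (5-HT) at 100 μM or with TNF-α at 2.5 µg/ml. The sample labels write the serotonin dose per ml. All 4 conditions are from the same line, and each was read by 1 one-color array of RNA that was pooled within the group, according to the methods. No difference between conditions has a replicate check, so no p-value is given.

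Levels are log2 intensities relative to the 75th percentile of the array, so 0 is that percentile, and they are set against each other only within a probe. The 75th percentile of the processed intensity lay between 479 and 566, and 56.5% to 66.0% of the probes were well above background, the scanner software's flag for a signal clear of the local background. Of several probes, the one of highest average level stood for its gene, and a difference of at least 2-fold (a log2 ratio of 1) was counted, the fold cutoff of the methods. The standard deviation of a log2 ratio between repeat spots was 0.07 to 0.10 for bright probes (level above 1), 0.10 to 0.11 for probes of middle level and 0.27 to 0.37 for dim probes (level below -2). It covers only spots within an array, not cultures. Of 8 adipocyte markers, 6 were well above background in each condition. PLIN1 was not in any of them, and ADIPOQ was not in the 3 pMA conditions, whereas the log2 of their summed level was 1.59 in PIP cells and 4.0 to 5.29 in the pMA conditions. Of the 7 adipocyte markers with a ratio in pMA against PIP cells, 6 were higher, 5 of them at least 2-fold, and ADIPOQ was lower. CD36, a fatty acid transporter, had the largest of these ratios (5.17, levels of -3.99 and 1.18), while its 4 probes ranged from 1.19 to 5.17. LPL gave 0.38. After serotonin 4 of 6 with a ratio were above pMA, PLIN2 by 1.0, while FABP4 gave -2.77. PLIN2 was the brightest of these markers in the 3 pMA conditions. Of 4 leukocyte markers on the array, 3 were well above background in each condition and CD163 in none. The summed level of the skeletal muscle markers was 9.33, 9.36 and 9.25 in PIP cells, pMA and pMA with TNF-α, and 7.46 after serotonin. That of the endothelial markers was 0.67, 0.21 and 0.21 in those conditions and -1.05 after serotonin, with CDH5 and TEK well above background in none. That of the leukocyte markers was 0.76, 1.22 and 1.86, and 1.23 after serotonin. Each sum mostly follows its brightest marker, here ACTA1, PECAM1 and CD14. After serotonin ACTA1 (log2 ratio to pMA -1.94) and DES (-1.02) were lower, while MYOG gave -0.01 and PAX7 0.39. All 3 endothelial markers with a ratio were lower there, PECAM1 by -1.46. The part of these markers in the results was not tested.

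The probe nearest the start of the transcript record is shown for the ligand, the receptors and the apoptosis regulators, with 2 more for CFLAR because its call depends on the probe. Each is named by the first base of the 60-base probe in its transcript record and held at least 1 reading frame free of stop codons before its last codon. In the FAS probe the capitals mark a stop codon that ends such a frame. In the 2 overlapping CFLAR probes they mark the 23 bases that the probes share, so these are not independent readings.
TNF, base 531: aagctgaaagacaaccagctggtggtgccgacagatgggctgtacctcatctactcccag
TNFRSF1A, base 565: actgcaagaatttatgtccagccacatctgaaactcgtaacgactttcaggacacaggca
TNFRSF1B, base 825: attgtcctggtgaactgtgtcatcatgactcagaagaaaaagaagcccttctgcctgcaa
FAS, base 942: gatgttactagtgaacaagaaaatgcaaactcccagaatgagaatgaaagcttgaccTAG
CASP8, base 579: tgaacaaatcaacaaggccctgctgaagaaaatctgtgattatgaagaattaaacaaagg
CFLAR, base 226: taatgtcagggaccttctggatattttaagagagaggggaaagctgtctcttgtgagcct
CFLAR, base 557: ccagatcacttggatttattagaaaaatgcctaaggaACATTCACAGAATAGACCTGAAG
CFLAR, base 594: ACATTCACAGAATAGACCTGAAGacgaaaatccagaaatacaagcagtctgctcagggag
BCL2L1, base 92: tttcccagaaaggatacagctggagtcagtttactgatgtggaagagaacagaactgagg
BCL2L2, base 368: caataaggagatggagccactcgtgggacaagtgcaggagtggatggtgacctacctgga

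A run of at least 14 bases in common with probes of other gene names was looked for on the same strand in all 22 probes. In 9 of the probes there was none. The 3 probes below are shown as 30-base stretches because such runs, in capitals, recurred most often in the first and the last of them and because the CFLAR probe decides a result. The CASP4 probe shared a run with 11 probes of other genes and the CFLAR probe at base 1768 with 4. The TNFRSF1A probe at base 1559 shared a run with 40, and its stretch holds a GT repeat of 24 alternating bases. The BCL2L1 and BCL2L2 probes had no run longer than 5 bases in common with each other.
CASP4, base 2668: agggttgggaTTTCCATTGTGGCTCAGTGG
CFLAR, base 1768: agctctatggcaTTCCCTCTGTGGCTCAGC
TNFRSF1A, base 1559: gcaGGTTGTGTGTGTGTGTGTGTGTGTGTG

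The files name no genome build, so no coordinates are given. In the RefSeq gene table of Sscrofa11.1, CFLAR and CASP8 lie on the same chromosome with CASP10 as the only gene between them.

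**Figure D1:**
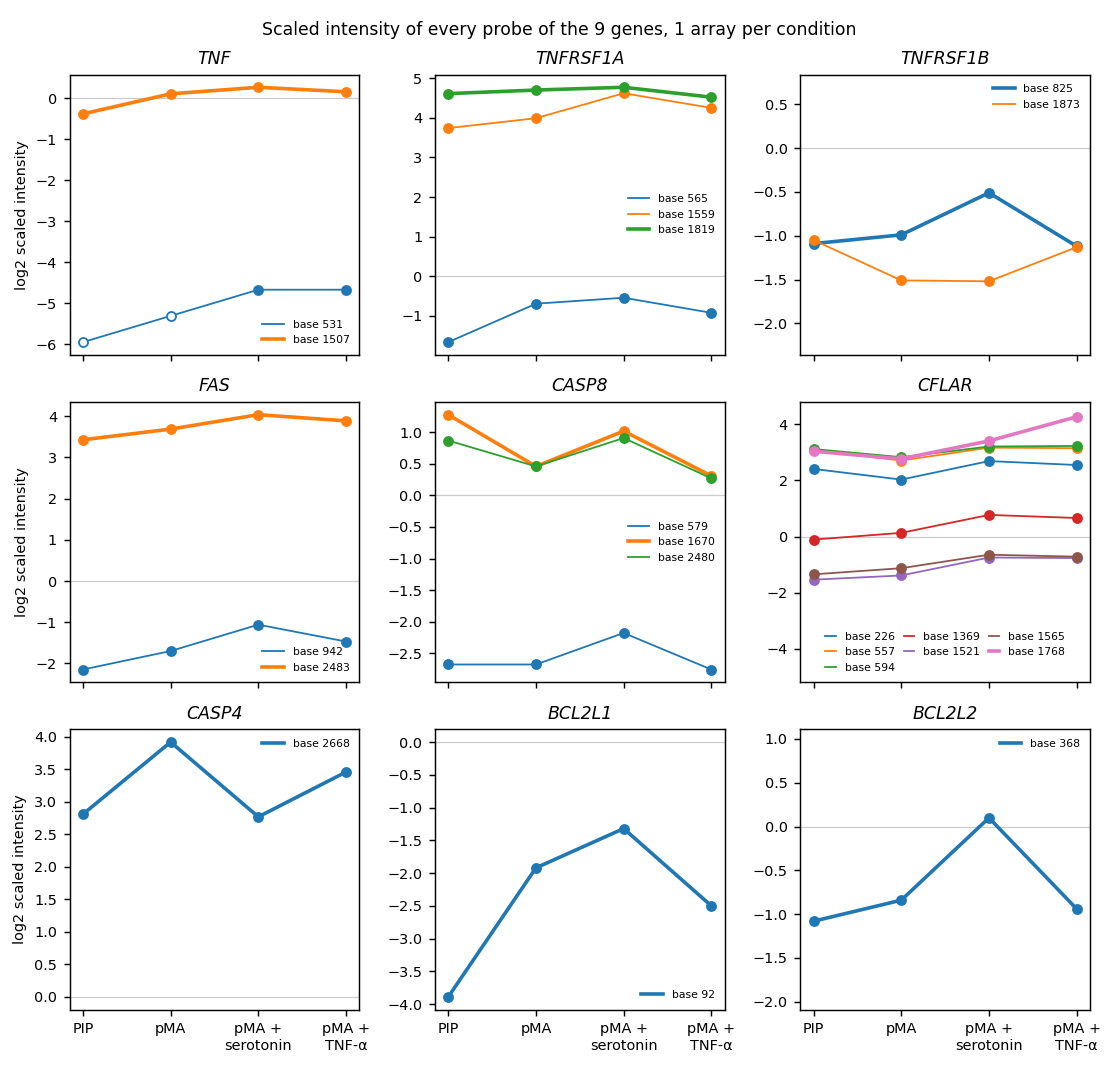
Levels of all 22 probes of the 9 genes in the 4 conditions, with the condition on the x axis and log2 intensity relative to the array's 75th percentile on the y axis, whose scale differs between genes. Each line is 1 probe, named by its first base in the transcript record, the thick line represents the gene, and open circles were not well above background. BCL2L1 had the widest range of levels (2.57), from PIP cells to pMA with serotonin.

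The transcript of TNF itself hardly differed between the 3 pMA conditions. The probe at base 1507 had levels of -0.38 in PIP cells, 0.11 in pMA, 0.27 after serotonin and 0.16 after TNF-α. PIP cells were lowest, and pMA was 1.40-fold higher (log2 ratio 0.49). The ratio to pMA was 0.15 after serotonin and 0.04 after TNF-α, and neighbors in the order of the 3 pMA conditions lay within 2 standard deviations of repeat spots. The probe at base 531, shown above, was dim. Its levels of -5.95 in PIP cells and -5.31 in pMA were not well above background. After either stimulus it was, at a level of -4.67 and processed intensities of 22.3 and 21.9. No ratio to pMA could be given for it, since on the pMA array no signal below -4.64 was well above background.

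TNFRSF1A was the member with the smallest range on its representing probe. At base 1819 the levels were 4.61 in PIP cells, 4.70 in pMA, 4.77 after serotonin and 4.52 after TNF-α. Sorted by level, neighbors lay within 2 standard deviations of repeat spots. TNF-α lay further than that below pMA (-0.18, standard deviation 0.08) and below serotonin (-0.25, standard deviation 0.1). The probe at base 565 had levels of -1.66, -0.69, -0.54 and -0.92 in the same order. PIP cells stood apart there, and pMA was 1.95-fold higher (0.97), just under 2-fold, with the other 2 probes at 0.09 and 0.26. The probe at base 1559 had levels of 3.74, 3.99, 4.62 and 4.25, and its ratio after serotonin was 0.63 where the other 2 probes gave 0.07 and 0.14. The 39 measured probes of other genes that share a run with base 1559 had a median ratio of 0.73 after serotonin, from -0.02 to 1.18. Their median was 0.39 after TNF-α, where this probe gave 0.25. The part of the shared run in the ratio of this probe was not tested.

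The 2 probes of TNFRSF1B disagreed in direction. At base 825 the levels were -1.09 in PIP cells, -0.99 in pMA, -0.51 after serotonin and -1.12 after TNF-α, so serotonin stood above the 3 other conditions and its ratio to pMA was 0.48. At base 1873 the levels were -1.05, -1.51, -1.52 and -1.13. There serotonin and pMA were lowest, with a ratio of -0.01, and TNF-α lay 0.37 above pMA. No direction can be given for this receptor after either stimulus.

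FAS, the death receptor for FAS ligand, had the same order of conditions on both probes. At base 2483 its levels were 3.43 in PIP cells, 3.69 in pMA, 4.04 after serotonin and 3.89 after TNF-α. At base 942 they were -2.15, -1.70, -1.06 and -1.47. PIP cells were lowest and serotonin highest on both. The ratios were 0.26 and 0.45 for pMA against PIP cells, 0.34 and 0.64 after serotonin, and 0.20 and 0.24 after TNF-α, all of them under 2-fold. Scaling to the median of each array turned the ratio of the brighter probe for pMA against PIP cells to -0.09. FASLG, which encodes its ligand, was not well above background in any condition.

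CASP8, the initiator caspase of the death receptors, was higher after serotonin than after TNF-α on all 3 probes. At base 1670 the levels were 1.28 in PIP cells, 0.46 in pMA, 1.02 after serotonin and 0.31 after TNF-α, and at base 2480 they were 0.87, 0.46, 0.91 and 0.27. On both, pMA and pMA with TNF-α were low. The dim probe at base 579 had levels of -2.68, -2.68, -2.18 and -2.76. The ratio of serotonin to pMA was 0.56, 0.45 and 0.50, and that of TNF-α to serotonin was between -0.71 and -0.58. For pMA against PIP cells the probes gave -0.82, -0.41 and 0.01. The first of these, which represents the gene, passed 2-fold after scaling to the median (-1.17).

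CFLAR, the caspase-8 regulator, was higher than in pMA on all 7 probes after serotonin and on all 7 after TNF-α. At base 1768, its brightest probe, the levels were 3.04 in PIP cells, 2.77 in pMA, 3.41 after serotonin and 4.27 after TNF-α. The last stood apart from the others, 2.82-fold above pMA (log2 ratio 1.5). At base 226 the levels were 2.41, 2.03, 2.69 and 2.55, at base 557 they were 3.08, 2.71, 3.17 and 3.15, and at base 594 they were 3.12, 2.83, 3.21 and 3.23. On these 3 probes pMA was lowest and the stimulated conditions lay within 2 standard deviations of each other. At base 1369 the levels were -0.11, 0.13, 0.77 and 0.66, at base 1521 they were -1.54, -1.39, -0.75 and -0.77, and at base 1565 they were -1.35, -1.13, -0.65 and -0.72. PIP cells were lowest on those 3, of which the last 2 overlap in sequence. The 6 probes other than base 1768 gave ratios of 0.40 to 0.61 after TNF-α (median 0.48) and of 0.38 to 0.65 after serotonin (median 0.55). The difference of at least 2-fold after TNF-α therefore rested on 1 probe of 7, where 2.27% of all probes with a ratio were as much higher, and without it the gene, then represented by base 594, had a ratio of 0.40. The other probe of the Ensembl record, at base 1369, gave 0.53. The 4 probes of other genes that share a run with base 1768 had ratios of 0.06 to 0.82 after TNF-α, and the part of that run was not tested. CASP10, the neighbor of CFLAR, had a ratio of -0.08 after TNF-α.

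**Figure D2:**
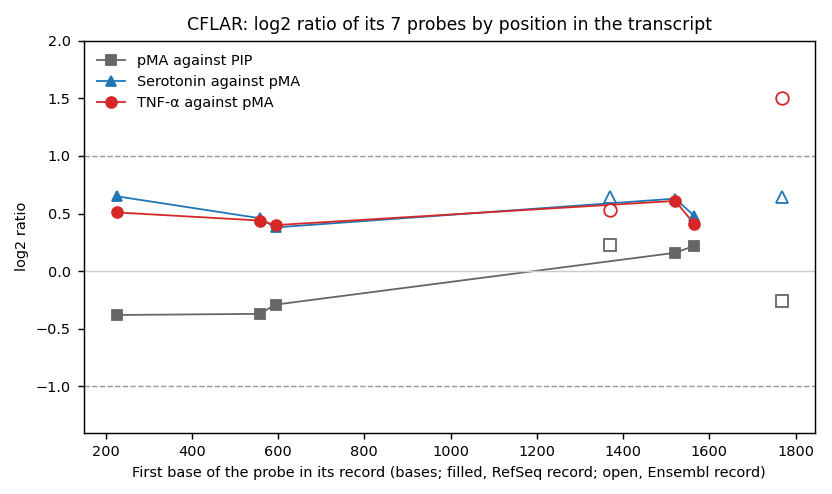
The log2 ratio of the 7 CFLAR probes against the first base of the probe in its record (filled symbols with lines, RefSeq record; open symbols, Ensembl record), for pMA against PIP cells, serotonin against pMA and TNF-α against pMA, 1 array per condition. Dashed lines mark 2-fold. After TNF-α the probe at base 1768 stood at 1.5 and the other 6 between 0.40 and 0.61, while after serotonin all 7 lay between 0.38 and 0.65.

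For pMA against PIP cells the CFLAR probes disagreed in direction. The probes at bases 226, 557, 594 and 1768 were lower in pMA, by ratios of -0.38 to -0.26, whereas those at bases 1369, 1521 and 1565 were higher, by 0.16 to 0.23. After scaling to spike-in controls, the probe at base 1768 gave 0.04.

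CASP4, the inflammatory caspase, had 1 probe, at base 2668. Its levels were 2.81 in PIP cells, 3.92 in pMA, 2.77 after serotonin and 3.46 after TNF-α. Thus pMA was highest, and PIP cells and serotonin lay within 0.04 of each other. It rose 2.16-fold in pMA against PIP cells (1.11) and fell 2.22-fold after serotonin (-1.15), while the ratio after TNF-α was -0.46. The rise was under 2-fold after scaling to the median (0.76). All 11 probes of other genes that share a run with it were measured, and they had ratios of -0.15 to 0.44 in pMA against PIP cells and of -0.35 to -0.11 after serotonin. The array annotation names the gene from an Ensembl transcript, and neither reference table used here held CASP4.

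BCL2L1, which encodes BCL-X, had 1 dim probe, at base 92. Its levels were -3.89 in PIP cells, -1.92 in pMA, -1.32 after serotonin and -2.50 after TNF-α, at processed intensities of 34.8, 126, 227 and 99. PIP cells were far below the rest. It rose 3.91-fold in pMA against PIP cells (1.97, with 0.37 as the standard deviation of repeat spots at this level). The ratio to pMA was 0.60 after serotonin and -0.58 after TNF-α, each within 2 standard deviations of repeat spots, and TNF-α lay 2.27-fold below serotonin (-1.18). With another background correction (normexp), these were 1.06 for pMA against PIP cells and -0.81 for TNF-α against serotonin, the latter under 2-fold. This single probe gives no separate reading of the long and short splice forms of BCL-X.

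BCL2L2, which encodes BCL-W, also had 1 probe, at base 368. Its levels were -1.08 in PIP cells, -0.84 in pMA, 0.10 after serotonin and -0.94 after TNF-α. Serotonin stood above the 3 others, which lay within 0.24 of each other. The ratio of serotonin to pMA was 0.95, or 1.93-fold, just under the cutoff, and it was 1.09 after scaling to spike-in controls. TNF-α lay 2.06-fold below serotonin (-1.04), or -0.85 with the normexp correction.

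Taking the comparisons in turn, 2 of the 9 genes were at least 2-fold higher in pMA than in PIP cells (BCL2L1 and CASP4) and none as much lower, where 13.5% of 18633 gene names differed that far, 9.94% higher and 3.56% lower. The median ratio of the 9 genes was 0.23 and that of all gene names 0.12. That comparison moves with the scaling: the median of all gene names was -0.22 after scaling to the median and 0.44 after scaling to spike-in controls. Relative to all gene names, BCL2L1 was 1.84 and CASP4 0.98 higher, and CASP8 was 0.95 lower. The ratios of TNFRSF1A (0.09), TNFRSF1B (0.10) and BCL2L2 (0.23) turned negative after scaling to the median. Fewer cells of a kind and less RNA per cell cannot be told apart in these RNA samples.

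After serotonin, 1 of the 9 genes, CASP4, was at least 2-fold lower than in pMA and none was as much higher, where 6.82% of 19095 gene names differed that far, 2.08% higher and 4.73% lower. The 8 other genes all had ratios above 0 on the representing probe, from 0.07 (TNFRSF1A) to 0.95 (BCL2L2), where 51.2% of all gene names were above 0. Those of TNF, TNFRSF1A and BCL2L1 lay within 2 standard deviations of repeat spots, and the other TNFRSF1B probe gave -0.01. The median of the 9 was 0.48 against 0.01 for all gene names. After TNF-α, CFLAR alone was past 2-fold, where 3.56% of 19782 gene names were, 2.21% higher and 1.34% lower. Of the 9 genes 3 were above pMA and 6 below, where 50.7% of all gene names were above. Of the 9, 4 lay beyond 2 standard deviations of repeat spots. The median was -0.13 against 0.01 for all gene names. Both comparisons use the same array of unstimulated pMA.

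The stimulated conditions were also compared directly, which leaves out the pMA array. Here 2 of the 9 genes were at least 2-fold lower after TNF-α than after serotonin, BCL2L1 and BCL2L2, and none was as much higher, where 6.9% of 21862 gene names differed that far, 5.07% higher and 1.83% lower. The 5 genes TNF, TNFRSF1A, TNFRSF1B, FAS and CASP8 also had negative ratios on the representing probe, from -0.71 (CASP8) to -0.11 (TNF). CFLAR (0.86, with 5 of its 7 probes below 0) and CASP4 (0.69) were the genes above 0, where 53.7% of all gene names were. All 3 TNFRSF1A probes, both FAS probes and all 3 CASP8 probes were lower after TNF-α than after serotonin, while the TNFRSF1B probes gave -0.61 and 0.39.

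**Figure D3:**
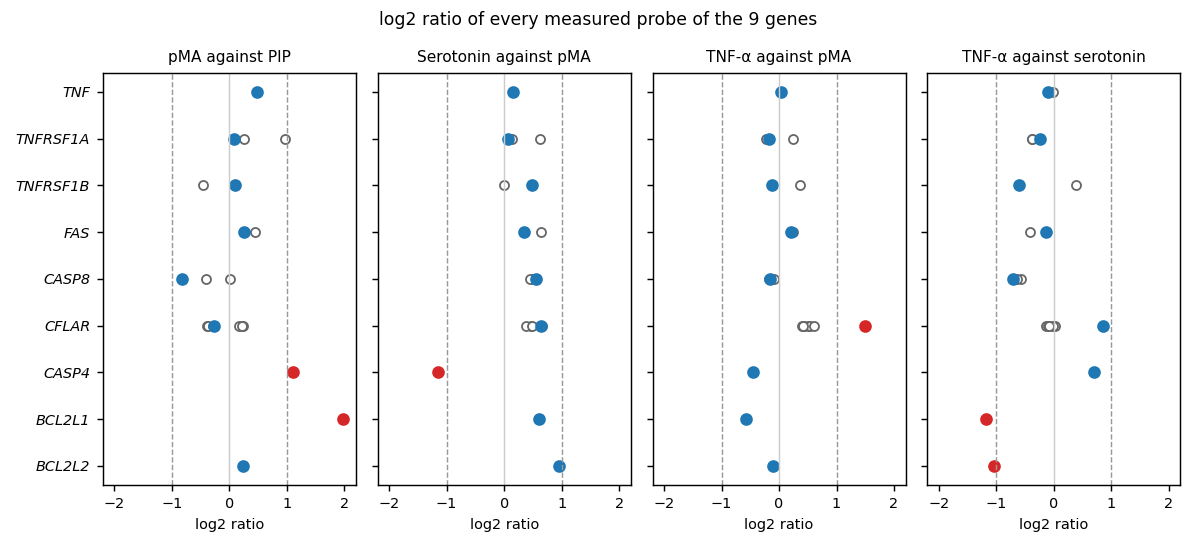
The log2 ratio (x axis) of each measured probe of the 9 genes (y axis) in the 4 comparisons, 1 array per condition. Filled circles are the probe that represents the gene, red where at least 2-fold, open circles are its other probes and dashed lines mark 2-fold. After TNF-α only the filled CFLAR circle passed 2-fold, at 1.5.

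The 3 gene symbols with the profile most like each changed gene over the 4 arrays were found by the root mean square difference of levels centered on the gene's mean, among up to 4763 symbols that were well above background on all arrays. For CFLAR, on the probe at base 1768, they were SLC2A6 (0.103), NFKB1 (0.129) and PTGES (0.145). In PIP cells, pMA, pMA with serotonin and pMA with TNF-α, the levels of SLC2A6 were 0.74, 0.48, 0.91 and 2.04. Those of NFKB1 were -0.13, -0.27, 0.09 and 0.90, and those of PTGES 5.42, 5.0, 5.83 and 6.91. This likeness holds for base 1768 alone. The other 6 CFLAR probes, with median ratios to pMA of 0.55 after serotonin and 0.48 after TNF-α, were not compared in this way. For BCL2L1 they were KLF9 (0.120), LHX3 (0.157) and JPH4 (0.173). For CASP4 they were TSPAN2 (0.066), CELA2A (0.079) and SERINC2 (0.082). For BCL2L2 they were GTF3C3 (0.046), TRPC1 (0.047) and ZFYVE26 (0.051). Symbols with a difference under 0.2 numbered 6 for CFLAR, 4 for BCL2L1, 29 for CASP4 and 99 for BCL2L2. The 3 named for CASP4 and BCL2L2 are therefore among many of nearly the same likeness.

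Of 138 other genes listed for the pathway, 66 were found by name and 54 to 58 of these had a ratio in a comparison. At least 2-fold were 2 higher and 3 lower in pMA against PIP cells, 6 higher and 3 lower after serotonin, 7 higher and 1 lower after TNF-α, and 11 higher and 4 lower after TNF-α against serotonin. These are 9.09%, 16.7%, 14.3% and 25.9%, against 13.5%, 6.82%, 3.56% and 6.9% of all gene names. The lists were chosen with earlier results of these data known, so the shares are no test of the pathway. The NF-κB target genes for survival gave 4 of the 6 higher after serotonin and 4 of the 7 higher after TNF-α. The medians lay between -0.02 and 0.05.

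FADD and RIPK1, the partners of the receptors, were under 2-fold in all 4 comparisons. FADD, the adaptor of the death receptors, had levels of 4.66 in PIP cells, 4.43 in pMA, 4.50 after serotonin and 4.61 after TNF-α. RIPK1, the kinase that TNFR1 recruits, had levels of 2.51, 1.95, 2.30 and 2.04. TRADD and TRAF2 were not matched by name. Of the 12 adaptors, kinases and ligases with a ratio, TAB3, a TAK1-binding protein, was higher in pMA than in PIP cells (1.05) and TRAF5, a TNF receptor adaptor, was lower after serotonin than in pMA (-1.05). Both were near the cutoff. TAB3, a dim gene with levels of -4.28 and -3.23 in PIP cells and pMA, was at 0.67 with quantile normalization, 0.70 after scaling to the median and 0.49 with normexp, and TRAF5 was at -0.90 after scaling to spike-in controls and -0.91 with normexp. None was past 2-fold after TNF-α, and the list's median was 0.03 there.

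Among the other ligands, TNFSF10 (TRAIL), which signals death through its own receptors, fell 5.15-fold after serotonin, with levels of 1.17 in PIP cells, 1.33 in pMA, -1.03 after serotonin and 0.35 after TNF-α. Its 3 probes had ratios of -2.36 to -2.24 after serotonin and of -1.35 to -0.98 after TNF-α. Of the 5 ligands with a ratio after serotonin it was the one past 2-fold, and the median of the list was -0.19. Among the other receptors, TNFRSF21 (death receptor 6) had levels of 3.01, 2.58, 2.84 and 1.66 and lay 2.27-fold lower after TNF-α than after serotonin, while RELT lay 2.14-fold higher (log2 ratio 1.10, or 0.98 after scaling to the median and 0.84 with normexp).

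Of the 8 other death-promoting BCL2-family genes with a ratio, PMAIP1 (NOXA) rose 2.84-fold after serotonin, with levels of 1.89 in PIP cells, 1.01 in pMA, 2.51 after serotonin and 1.49 after TNF-α. BCL2L11 (BIM) fell 2.88-fold there (levels 0.32, 0.30, -1.23 and -0.16), although its other measured probe gave 0.22 and the median of the 2 was -0.65. After TNF-α, BAX (-1.19) and PMAIP1 (-1.02) were lower than after serotonin, and BCL2L11 (1.07) and BID (1.01) were higher. The other measured BCL2L11 probe gave -0.66 there, and both BCL2L11 and BID were under 2-fold after scaling to the median (0.95 and 0.89), after scaling to spike-in controls (0.98 and 0.93) and with normexp (0.90 and 0.99). BAX, the pore-forming effector, was highest after serotonin, with levels of 0.07, 0.80, 1.71 and 0.52. So were BCL2L2 and BCL2L1, the latter within 2 standard deviations of repeat spots of pMA. BID, which CASP8 cleaves, fell 2.27-fold in pMA against PIP cells (-1.18, or -0.88 after scaling to spike-in controls). The median of this list was within 0.1 of 0 in all 4 comparisons. Of the survival members, MCL1 had ratios of 0.16, 0.01 and 0.20 in pMA against PIP cells, after serotonin and after TNF-α. BCL2A1, also an NF-κB target, was well above background only after TNF-α where it exceeded pMA by at least 2.2-fold.

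For such a lower bound, the dim level is set no lower than the lowest signal that counted as well above background on its array. In the same way, levels of CASP1, the caspase of the inflammasome, after TNF-α were at least 2.92-fold higher than in pMA and at least 4.16-fold higher than after serotonin. Its levels were -4.16 in PIP cells, -4.61 in pMA, -6.01 after serotonin and -3.07 after TNF-α, and those in pMA and after serotonin were not well above background. With normexp these bounds fell under 2-fold, to log2 ratios of 0.33 and 0.80, as did that of BCL2A1 over pMA (0.31). NLRP3, an inflammasome sensor, rose 2.09-fold after TNF-α (1.06) and had a ratio of -0.02 after serotonin. The first was under 2-fold after scaling to the median (0.98) and with normexp (0.85). TIMP3, an inhibitor of the protease that sheds TNF, fell 2.14-fold after TNF-α (-1.10, or -0.78 with normexp). The summed level of the leukocyte markers was 1.22 in pMA and 1.86 after TNF-α. CD14 was at 0.90 and 1.56 and TYROBP at -2.50 and -0.93, whereas AIF1 went the other way, at -1.97 and -2.89. The part of these markers in these results was not tested.

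Of the 5 NF-κB target genes for survival on the array, 4 of the 4 with a ratio rose at least 2-fold after serotonin (median 1.87) and 4 of 5 after TNF-α (median 3.04). TNFAIP3 (A20), an inhibitor of NF-κB signaling, had levels of -3.81 in PIP cells, -3.71 in pMA, -1.45 after serotonin and 1.59 after TNF-α. It had 1 probe, dim in PIP cells and pMA. Its ratios to pMA of 2.26 after serotonin and 5.29 after TNF-α were 1.19 and 3.86 at the lowest under other processing. NFKBIA, the NF-κB inhibitor, had levels of 4.2, 4.56, 6.52 and 7.59, and SOD2, the mitochondrial superoxide dismutase, of 2.46, 2.98, 4.51 and 6.66. TNF-α was highest and serotonin next in all 3 of these genes. IER3 differed from them, with levels of 1.93, 0.82, 2.59 and 1.63, highest after serotonin. It fell 2.15-fold in pMA against PIP cells (-1.10, or -0.80 after scaling to spike-in controls). The other of its 2 probes gave -0.7 there, and their median was -0.9. Of 7 p53 target genes, TP53INP1 rose after serotonin (1.03, or 0.86 with normexp). The other of its 2 probes gave 0.91, and their median was 0.97. MDM2 lay lower after TNF-α than after serotonin (-1.01, or -0.98 with normexp). The median of the list was -0.12 after serotonin and -0.41 after TNF-α. Among inhibitors of apoptosis, BIRC5 (survivin), which is made mostly by dividing cells, fell 21.2-fold in pMA against PIP cells and rose 2.47-fold from pMA after TNF-α. XIAP rose 2.54-fold in pMA against PIP cells on 1 of its 2 probes, the other giving 0.13, and was at 0.99 after scaling to the median.

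**Figure D4:**
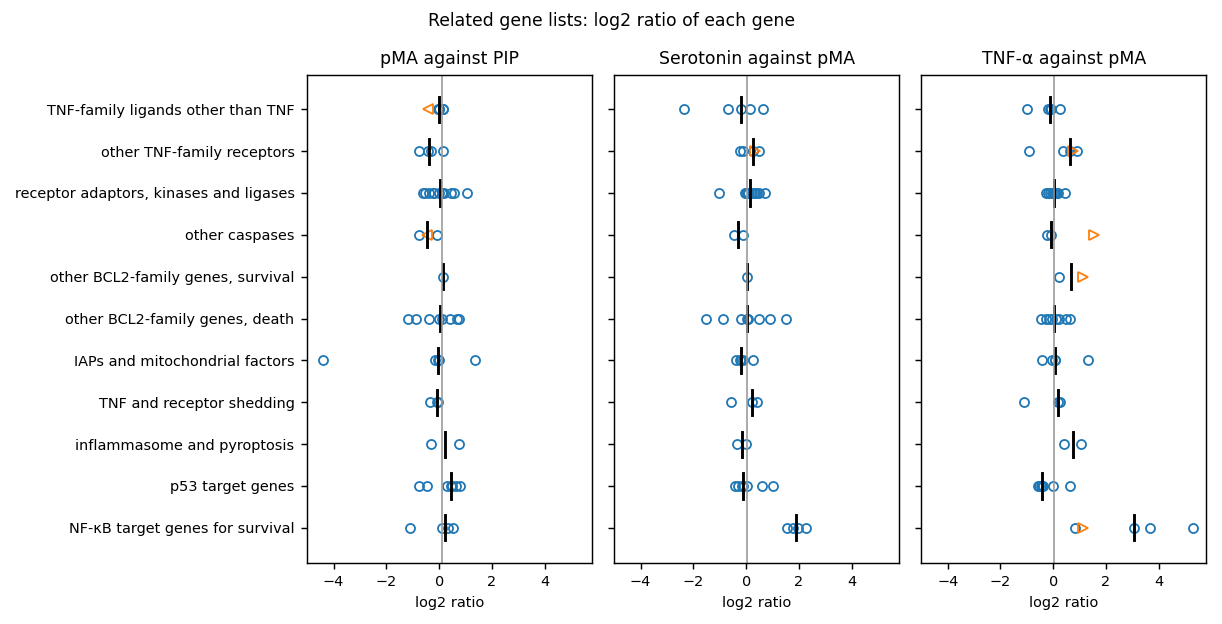
The log2 ratio (x axis) of each gene in 11 related gene lists (y axis) for pMA against PIP cells, serotonin against pMA and TNF-α against pMA, 1 array per condition. Circles are measured ratios, triangles are lower bounds of a change, black bars are list medians and the gray line is the median of all gene names. The NF-κB survival targets had a median of 1.87 after serotonin and 3.04 after TNF-α.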

How the data were processed

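Processed intensities of 4 one-color porcine Agilent arrays were deposited by the authors as scanner output (Feature Extraction 10.7.3.1), background-subtracted by that software but not normalized between arrays. A deposited value table holds the ratio of the same intensities to 1 constant per array, close to its 75th percentile over all spots. The methods describe both a mouse and a two-color porcine design, analyzed with GeneSpring GX and limma, whereas the files are of a porcine array with 1 color.

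Here control spots and outlier spots were dropped, log2 intensities were centered on each array's 75th percentile, and repeat spots of a probe were averaged (pandas 2.3.3, numpy 2.4.6). A gene took its probe of highest mean. Named genes were the 9 members, the genes of each list past 2-fold (at most 4 per list and comparison) and partners of the receptors, of which 1 gene is not reported here. CD36, FABP4, LPL, PLIN2, CASP10 and MCL1 were named outside that rule, after their values were seen. The members and lists were chosen with earlier results of these data known. CFLAR was added under the array name C-FLIP, and 5 further listed genes under older names, after the files were seen. The script was tested on simulated data. Of 11 other settings of scaling, background, filter, probe choice and cutoff, the normexp correction (offset 50) came from limma 3.58.1. The number of arrays limits the precision.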

Additional observations from a re-analysis of the deposited data

How the results depend on the processing

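No paired analysis was possible because each condition has 1 array, and for the same reason no array could be left out. All 6 member ratios past 2-fold kept their direction under the 9 alternatives to which a ratio was put. Of these ratios 2 stayed past 2-fold in all 9, BCL2L1 in pMA against PIP cells (1.06 to 2.27) and CASP4 after serotonin (-1.16 to -1). The alternatives of filter and detection flag could not change them, since each representing probe was well above background on all 4 arrays. The median over probes could not change CASP4, BCL2L1 or BCL2L2, which have 1 probe each. The deposited values differ from the main ones only by a constant per array. The count of members past 2-fold became 2 after serotonin with scaling to spike-in controls, 0 after TNF-α with the median over a gene's probes, and 0 for TNF-α against serotonin with normexp. In pMA against PIP cells the count was 2 with the p75 and the median scaling, but CASP8 took the place of CASP4. At 1.5-fold the counts were 3 in pMA against PIP cells, 4 after serotonin, 1 after TNF-α and 6 for TNF-α against serotonin, where 34.0%, 21.0%, 12.1% and 21.1% of all gene names passed. At 4-fold all 4 counts were 0. Chosen after seeing the data, leaving out the CFLAR probe at base 1768, or taking each gene's probe nearest the start of its record, gave 0 after TNF-α. Of 36 member ratios, 8 turned sign in at least 1 alternative, the largest being CFLAR in TNF-α against serotonin, 0.86 on its brightest probe and -0.02 as the median of its probes. Of 396 list medians recomputed, 25 turned sign, none of them over 0.23 in size. With no filter on dim probes, gene names past 2-fold in pMA against PIP cells, after serotonin, after TNF-α and between the stimuli numbered 7130, 3902, 3235 and 4447 rather than 2515, 1302, 704 and 1509, and with normexp 824, 578, 267 and 694. With the scanner's weaker detection flag they were 7130, 3902, 3234 and 4447, and with scaling to spike-in controls the first was 3931. The cause of these changes was not tested. Of 37 ratios past 2-fold among the genes of the other lists, 18 stayed past it under each of the 9 alternatives that gave a value and 19 did not, 14 of them with normexp. None turned sign. Low signal limits CASP1, BCL2A1 and the TNF probe at base 531, each not well above background on at least 2 arrays.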
